A study of Mus musculus with 50 samples.

Results

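The 10 genes described here are the transcription factor Nfe2l2 (NRF2), its inhibitor Keap1 and 8 of the genes that NRF2 is best known for switching on, namely Gclc, Gclm, Gsr, Slc7a11, Txnrd1, Srxn1, Nqo1 and Hmox1. They were taken by gene symbol from the table of 37701 genes, in which all 10 were found, and all 10 passed the filter on low values that left 16733 genes for testing. Expression was measured by RNAseq in 50 mammary gland (MG) tumors of female p53R270H/+WAPCre mice. In this model a Cre recombinase under the WAP promoter, which is active in mammary epithelium, switches on a heterozygous point mutation of p53, so that every tumor, including those of the vehicle group, carries the mutant p53. From an age of 8 weeks the mice had received subcutaneous injections on alternate days of vehicle, insulin, glargine, X10 or IGF1, and each of these 5 groups holds 10 tumors. Glargine is an insulin with extra arginines on its B chain and a glycine at the end of its A chain, X10 is an insulin with an aspartic acid in place of a histidine in its B chain, and IGF1 is insulin-like growth factor 1. Doses are not given in the sources used here. Tumors were collected at 1 cm3 and 24 h after the final injection, and the authors had picked epithelial to mesenchymal transition (EMT)-like tumors near the median latency of their own group, so the groups do not represent all tumors of the treated mice. The paper reports a shorter latency with X10 and IGF1. Age at collection and length of treatment can therefore differ between groups and cannot be told apart from the ligand.

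NRF2 is a transcription factor that is made continuously and, in unstressed cells, bound by KEAP1 and handed to a ubiquitin ligase for destruction. Oxidants and electrophiles modify cysteines of KEAP1, after which NRF2 accumulates, pairs with small MAF proteins and binds antioxidant response elements. Since this control acts on the NRF2 protein, the mRNA levels of Nfe2l2 and Keap1 do not measure NRF2 activity, and the target genes are its usual readout. In tumors the pathway is known for protecting cells against oxidants and drugs.

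Expression is given as RPKM, reads per kilobase of gene and per M reads, as deposited. The library size recovered from the steps between RPKM values ran from 26.7 to 51.9 M reads (median 40.9), and the lowest read number of any of the 10 genes in any tumor was 109 (Nqo1). The tumors differed in cell make-up. The summed RPKM of 8 epithelial markers (keratins, Epcam, Cdh1 and Cldn4) was between 12.2 and 6430, and that of 6 fibroblast markers (collagens, Pdgfra, Dcn and Lum) between 2600 and 31400, with all of these markers detected. In such bulk samples fewer cells of a type and less RNA per cell cannot be told apart. The labels do not say that each tumor came from a separate mouse, so p-values measure the spread between these tumors.

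Nfe2l2 (chr2:75675513-75704641, minus strand, GRCm38) was the steadiest of the 10 genes, with 37.3 to 92.4 RPKM and a median of 68.2. Its SD on the log2 scale, 0.28, was larger than that of 13.4% of the tested genes. The lowest, median and highest values were 41.4, 58.5 and 92.4 RPKM in vehicle, 48.5, 72.3 and 77.95 in insulin, 52.2, 64.6 and 85.9 in glargine, 60.7, 69.6 and 91.7 in X10, and 37.3, 71.3 and 87.4 in IGF1 tumors. All 5 groups overlapped. The letters TGACTCCGC, a match to the core of the antioxidant response element, lie 240 bases before its transcription start.

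Keap1 (chr9:21229730-21239361, minus strand), the inhibitor, had 7.62 to 26.9 RPKM. The lowest, median and highest values were 9.91, 16.1 and 26.9 RPKM in vehicle, 9.43, 16.1 and 18.6 in insulin, 11.2, 15.2 and 21.0 in glargine, 7.62, 13.2 and 17.2 in X10, and 12.8, 16.1 and 24.2 in IGF1 tumors. The X10 tumors were the lowest group, with 9 of 10 below the vehicle median and 5 of 10 below the lowest IGF1 tumor, but the groups overlapped. Treatment groups accounted for 24.2% of the variance of Keap1, the largest share among the 10 genes, against 2.02% for Gclc and Srxn1.

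Gclc and Gclm encode the catalytic and the modifier subunit of glutamate-cysteine ligase, the rate-limiting enzyme of glutathione synthesis. Gclc (chr9:77754535-77794485, plus strand) had 3.37, 9.29 and 25.4 RPKM (lowest, median and highest) in vehicle, 7.05, 9.17 and 13.3 in insulin, 6.49, 10.7 and 13.6 in glargine, 7.05, 9.18 and 11.2 in X10, and 5.05, 10.0 and 13.8 in IGF1 tumors. Both the highest and the lowest of the 50 Gclc values were found in vehicle tumors. Gclm (chr3:122245557-122270732, plus strand) had 30.4, 43.1 and 156 RPKM in vehicle, 37.3, 55.3 and 74.8 in insulin, 34.2, 43.6 and 74.2 in glargine, 40.2, 48.3 and 70.5 in X10, and 27.1, 62.1 and 89.4 in IGF1 tumors. Again the vehicle group spanned nearly the whole range, with 1 tumor far above the rest.

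Slc7a11 encodes the cystine transporter that brings in the cysteine for glutathione, and Gsr the reductase that returns oxidized glutathione to its reduced form. Slc7a11 (chr3:49892526-50443614, minus strand) was the lowest expressed of the 10 genes, with 0.488, 1.54 and 3.59 RPKM in vehicle, 0.583, 1.68 and 6.01 in insulin, 0.702, 1.02 and 4.57 in glargine, 0.725, 1.62 and 4.404 in X10, and 0.849, 1.25 and 3.25 in IGF1 tumors. Within each group the highest tumor was several-fold above the lowest, and across all tumors the ratio of highest to lowest was 12.3. Gsr (chr8:33652523-33698163, plus strand) had 50.7, 154 and 257 RPKM in vehicle, 87.6, 109 and 194.9 in insulin, 79.2, 105.03 and 206 in glargine, 78.1, 167 and 208 in X10, and 41.9, 134 and 180.0 in IGF1 tumors. The medians of vehicle and X10 were the highest, within the range of every other group.

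RefSeq promoter windows (GRCm38.p6, 250 bases before to 50 bases after a transcription start) were found for 7 of the 10 genes, with 9 windows in all. They were searched on both strands for the core of the antioxidant response element (TGACNNNGC), the palindromic AP-1 site (TGANTCA) and the core of the ATF4 composite element (TGATGNAA), which are present in 12.4%, 7.81% and 3.97% of 32851 such windows. The AP-1 site can overlap an antioxidant response element. The 250 bases before the start are shown for the genes of the glutathione and thioredoxin branches that hold a match there, read 5′ to 3′ on the strand of the gene, with matches in capitals. In Gclm (chr3:122245307-122245556, plus strand) the capitals mark an antioxidant response element core read on the opposite strand, TGACGGTGC, which begins 134 bases before the start. In Slc7a11 (chr3:50443614-50443863, minus strand) they mark a pair of ATF4 composite element cores, TGATGCAA, 66 bases before the start and, on the opposite strand, 47 bases before it. In the window of Txnrd1 at chr10:82858956-82859205 (plus strand) they mark an antioxidant response element core on the opposite strand, TGACAAAGC, 92 bases before the start. In Srxn1 (chr2:152105274-152105523, plus strand) they mark a pair of AP-1 sites, TGAGTCA, 102 and 45 bases before the start, and a further antioxidant response element core, TGACCTAGC on the opposite strand, lies at position 29 after the start. None of these letters were found in the windows of Keap1 and Nqo1 or in the other 2 windows of Txnrd1.
Gclm: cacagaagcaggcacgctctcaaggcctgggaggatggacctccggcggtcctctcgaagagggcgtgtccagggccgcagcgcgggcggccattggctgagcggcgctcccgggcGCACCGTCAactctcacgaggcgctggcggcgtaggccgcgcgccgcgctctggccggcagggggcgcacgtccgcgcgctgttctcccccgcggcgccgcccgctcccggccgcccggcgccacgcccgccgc
Slc7a11: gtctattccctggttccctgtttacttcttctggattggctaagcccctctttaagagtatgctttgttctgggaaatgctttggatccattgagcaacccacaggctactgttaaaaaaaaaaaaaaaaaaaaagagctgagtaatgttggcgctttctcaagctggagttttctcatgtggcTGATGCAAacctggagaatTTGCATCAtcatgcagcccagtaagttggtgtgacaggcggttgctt
Txnrd1: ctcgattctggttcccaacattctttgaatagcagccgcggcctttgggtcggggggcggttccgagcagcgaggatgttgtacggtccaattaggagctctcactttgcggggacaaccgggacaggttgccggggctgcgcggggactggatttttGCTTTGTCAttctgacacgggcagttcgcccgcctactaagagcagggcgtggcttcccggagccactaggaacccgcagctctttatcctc
Srxn1: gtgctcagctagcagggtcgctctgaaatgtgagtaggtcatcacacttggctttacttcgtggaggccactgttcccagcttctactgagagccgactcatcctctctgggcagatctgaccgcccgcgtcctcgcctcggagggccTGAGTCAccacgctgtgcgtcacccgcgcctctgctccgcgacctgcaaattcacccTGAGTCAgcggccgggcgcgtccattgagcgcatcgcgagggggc

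Txnrd1 encodes the cytosolic thioredoxin reductase and Srxn1 sulfiredoxin, which repairs overoxidized peroxiredoxins. Txnrd1 (chr10:82833951-82897712, plus strand) had 30.0, 37.9 and 119 RPKM (lowest, median and highest) in vehicle, 28.2, 33.4 and 42.9 in insulin, 24.8, 36.8 and 48.3 in glargine, 26.0, 33.0 and 47.8 in X10, and 25.7, 39.4 and 48.7 in IGF1 tumors. Outside the vehicle group no tumor reached 50 RPKM. Srxn1 (chr2:152105516-152111376, plus strand) had 25.5, 48.3 and 104 RPKM in vehicle, 32.4, 41.9 and 61.3 in insulin, 34.0, 45.8 and 99.4 in glargine, 20.7, 51.9 and 60.9 in X10, and 21.8, 47.0 and 63.4 in IGF1 tumors. The group medians of Srxn1 lay close together.

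Nqo1 encodes a quinone reductase and Hmox1 heme oxygenase 1, which degrades heme and is also switched on by other stress pathways. Nqo1 (chr8:107388225-107403206, minus strand) varied most, with 1.76, 4.83 and 27.3 RPKM in vehicle, 1.95, 4.21 and 8.55 in insulin, 2.07, 4.43 and 15.0 in glargine, 1.39, 4.52 and 11.1 in X10, and 1.85, 2.94 and 15.0 in IGF1 tumors. The highest tumor was 19.6-fold above the lowest. Hmox1 (chr8:75093621-75100589, plus strand) had 53.4, 93.5 and 523 RPKM in vehicle, 74.1, 115.2 and 219 in insulin, 60.5, 94.5 and 224 in glargine, 51.3, 95.8 and 401 in X10, and 64.6, 120.1 and 306 in IGF1 tumors. For both genes the spread within a group exceeded the distance between group medians.

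**Figure D1:**
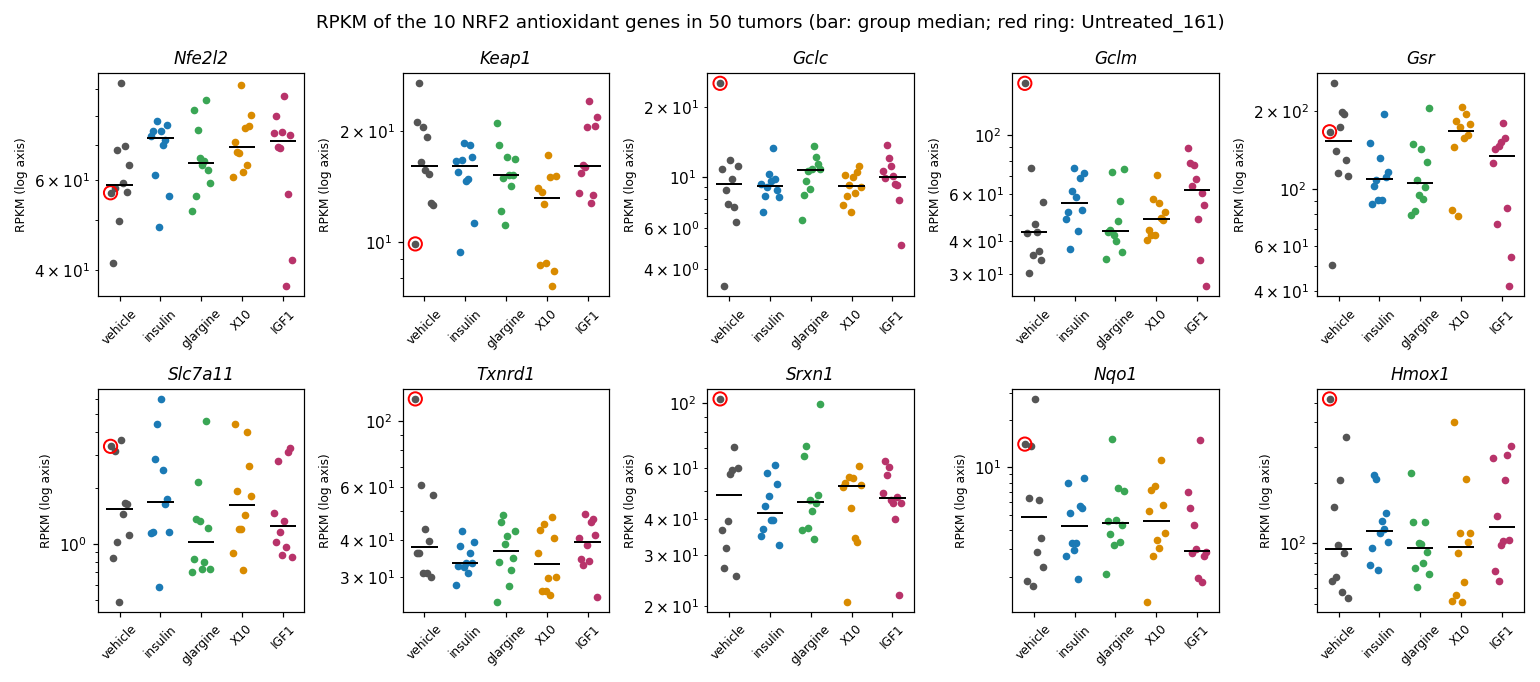
RPKM (log axis) of the 10 genes in each tumor, by treatment group, with 10 tumors per group, a bar at the group median and a red ring around the vehicle tumor titled Untreated_161. The groups overlap for every gene, and the ringed tumor is the highest of all 50 for Gclc, Gclm, Txnrd1, Srxn1 and Hmox1.

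RPKM values of different genes could be ordered only with caution. The gene length implied by the RPKM steps was 718 bases for Gsr and 728 bases for Hmox1, against 2754 and 1751 bases of annotated exons in GENCODE M21, while it was 1553 bases for Nqo1 by both measures. On the deposited scale the median RPKM was highest for Gsr (131) and Hmox1 (102), and on annotated exon length it was highest for Srxn1 (49.9) and Hmox1 (42.3). Slc7a11 (1.35 and 0.60) and Nqo1 (4.04 and 4.04) were lowest on both scales. Comparisons of the same gene between tumors are not touched by this.

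Whether chronic exposure to insulin, its analogues or IGF1 changed these genes was tested against vehicle with limma on log2(RPKM + 0.5), with Benjamini-Hochberg adjustment over the 16733 tested genes. None of the 10 genes passed an adjusted p-value of 0.05 in any of the 4 treatments. Few genes of any kind did. The share of all tested genes called was 0% in the insulin and 0% in the glargine comparison, and 0.0657% with X10 and 0.00598% with IGF1, so the count of 0 among 10 genes does not set them apart from other genes. At an unadjusted p-value under 0.05 there was 1 of the 10 genes for insulin and 2 for X10, and 0 for glargine and IGF1, where 11.1% of all tested genes passed that level for insulin, 11% for X10, 6.23% for glargine and 8.84% for IGF1. Over the 40 differences from vehicle the log2 fold change was between -0.48 and 0.24.

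The largest of these differences was that of Keap1 in X10 tumors, with a mean of 12.1 ± 3.44 RPKM against 17.1 ± 5.01 in vehicle (SD, n = 10). Its log2 fold change was -0.48 ± 0.16 (SE), with an unadjusted limma p-value of 0.00341 and an adjusted p-value of 0.25. By size the next were Nqo1 (-0.44 ± 0.38, adjusted limma p = 0.811) and Gsr (-0.44 ± 0.24, adjusted limma p = 0.628), both in IGF1 tumors. By p-value the next was Txnrd1, with 48.3 ± 26.9 RPKM in vehicle, 34.8 ± 4.35 in insulin and 35.2 ± 8.36 in X10 tumors. Its log2 fold changes of -0.34 ± 0.17 for insulin and -0.35 ± 0.17 for X10 had limma adjusted p-values of 0.431 and 0.432. Without the vehicle tumor titled Untreated_161, which holds the highest Txnrd1 value, they were -0.18 and -0.19, whereas that of Keap1 in X10 was -0.56 with an adjusted p-value of 0.189. Also without that tumor, the log2 fold changes of Gclm were 0.37 for insulin and 0.40 for IGF1 (unadjusted limma p = 0.0418 and 0.0287, adjusted 0.558 and 0.598), against 0.19 and 0.22 with it. The genes at an unadjusted p-value under 0.05 were then 1 each for insulin, X10 and IGF1 and 0 for glargine. Without the vehicle tumor Untreated_162, which holds the lowest Gsr value of its group, the log2 fold changes of Gsr were -0.60 in IGF1, -0.48 in insulin, -0.50 in glargine and -0.10 in X10 tumors, against -0.44, -0.31, -0.33 and 0.07 with it, and the smallest adjusted limma p-value was 0.323. Unadjusted, those of Gsr were 0.00993 in IGF1, 0.033 in glargine and 0.0404 in insulin tumors (limma), so that the genes at an unadjusted p-value under 0.05 were 2 each for insulin and X10 and 1 each for glargine and IGF1.

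Of the 9 cell type marker lists, 0 members were called by limma in any of these comparisons after adjustment, but the fold changes of some lists had 1 sign. All 7 macrophage markers had a positive log2 fold change against vehicle in each of the 4 treatments, with a median of 0.48 to 0.93 and 3 to 5 of them at an unadjusted p-value under 0.05. That of all 8 epithelial markers was negative with insulin (median -0.96) and with IGF1 (median -1.86), as it was for 6 of 8 with glargine and 5 of 8 with X10. All 5 neutrophil markers had a negative log2 fold change in each of the 4 treatments, with a median of -1.15 in IGF1, -1.13 in insulin, -0.89 in glargine and -0.56 in X10 tumors, and their part in the differences of the 10 genes from vehicle was not tested. The 5 erythroid markers were negative in each treatment as well (medians of -0.12 to -0.44), and the 5 adipocyte markers were positive in glargine (median 1.03, 2 of 5 at an unadjusted p-value under 0.05). With the epithelial and macrophage scores as covariates the log2 fold change of Gsr in IGF1 tumors was -0.07 and that of Nqo1 0.08, whereas that of Keap1 in X10 tumors was -0.51 (adjusted limma p = 0.342) and that of Hmox1 in IGF1 tumors was 0.71, against 0.22 without covariates (adjusted limma p = 0.722 and 0.94). Those of Txnrd1 with covariates were -0.19 in insulin and -0.23 in X10 tumors (unadjusted limma p = 0.283 and 0.17), against -0.34 and -0.35 without them.

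For Nfe2l2 the 95% interval of the fold change was 0.94 to 1.34 for insulin and 0.988 to 1.41 for X10. For Gclc it was 0.789 to 1.3 for insulin and 0.821 to 1.35 for IGF1. For the variable genes it was wide, with 0.435 to 1.24 for Nqo1 and 0.708 to 1.93 for Hmox1 in IGF1 tumors. Without Untreated_161 the log2 fold changes of Gclc were 0.18 for insulin and 0.23 for IGF1, against 0.02 and 0.08 with it, and that of Hmox1 in IGF1 tumors was 0.46, against 0.22.

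**Figure D2:**
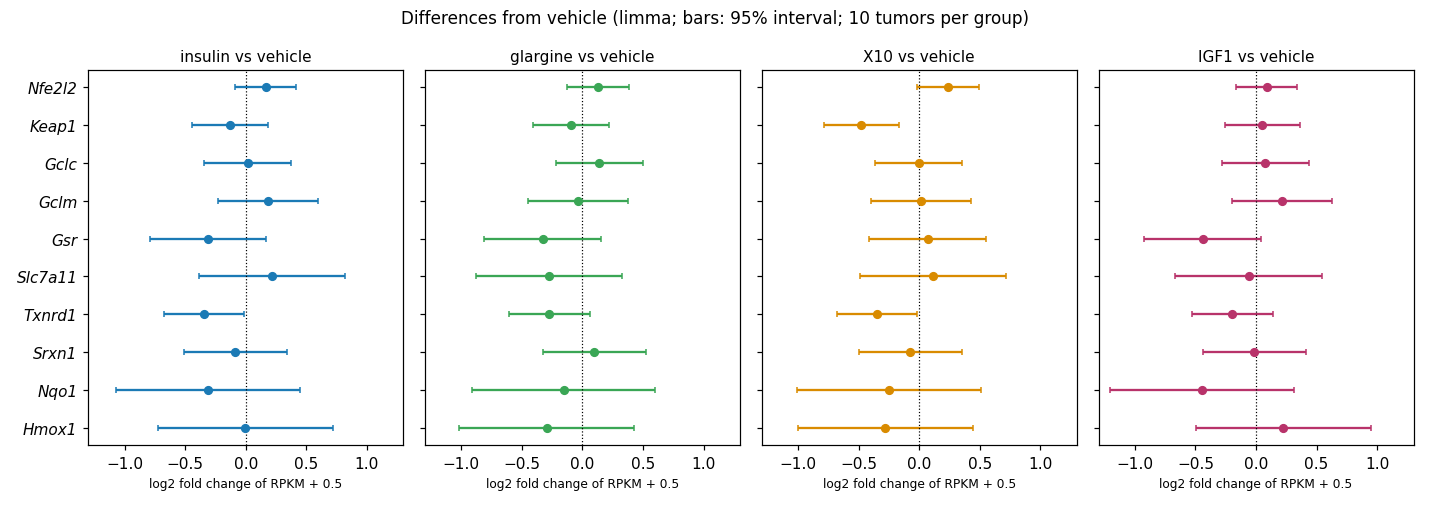
Log2 fold change of RPKM + 0.5 against vehicle for the 10 genes in insulin, glargine, X10 and IGF1 tumors, with points for the limma estimate and bars for its 95% interval (10 tumors per group). The intervals of Keap1 in X10 and of Txnrd1 in insulin and X10 lie below 0 before adjustment for multiple testing, and none passed after it.

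The injected proteins were also compared with each other, in 6 pairs. Of the 10 genes, 0 were called in glargine against insulin, X10 against insulin, IGF1 against insulin, X10 against glargine, IGF1 against glargine and IGF1 against X10. The share of all tested genes called in these pairs was 0%, 0.102%, 0.00598%, 1.78%, 0% and 0%. At an unadjusted p-value under 0.05 the 10 genes gave counts of 0, 1, 0, 1, 0 and 2, beside 3.96%, 11.3%, 7.3%, 11.6%, 6.98% and 11.7% of all tested genes. Keap1 again gave the smallest p-values. It had 17.5 ± 4.01 RPKM in IGF1 and 12.1 ± 3.44 in X10 tumors, with a log2 difference of 0.53 ± 0.16, a 95% interval of the fold change of 1.16 to 1.79 and an adjusted limma p-value of 0.344. In X10 tumors its log2 difference was -0.35 from insulin (adjusted limma p = 0.362) and -0.38 from glargine (adjusted limma p = 0.247). These comparisons share the X10 tumors. Gsr had the opposite sign, with 115.8 ± 48.4 RPKM in IGF1 and 156 ± 43.8 in X10 tumors and a log2 difference of -0.51 ± 0.24 (adjusted limma p = 0.405). All 8 epithelial markers were also lower in IGF1 than in X10 tumors (median log2 difference -1.57, 4 of 8 at an unadjusted p-value under 0.05). The 5 neutrophil markers were all lower too (median -0.67), while 6 of 7 macrophage markers were higher (median 0.35). With the epithelial and macrophage scores as covariates the log2 difference was -0.28 for Gsr, 0.50 for Keap1 and 0.79 for Hmox1, and neutrophil markers were not a covariate. That of Hmox1 was 0.50 without covariates (unadjusted limma p = 0.167) and passed the unadjusted but not the adjusted level with them (unadjusted limma p = 0.0368, adjusted 0.317).

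In a comparison of the 20 tumors of X10 and IGF1 mice with the 30 other tumors, 0 of the 10 genes were called, against 0.155% of all tested genes, and 0 of the 10 had an unadjusted limma p-value under 0.05, against 10.5% of all tested genes. The F test over the 5 groups called 0 of the 10 genes and 0.102% of all genes, and 1 of the 10, Keap1, had an unadjusted p-value under 0.05 (limma p = 0.0122, adjusted 0.273), beside 13.1% of all tested genes. The next in that test was Gsr, with an adjusted limma p-value of 0.549.

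A wider list of 46 other genes of the NRF2 pathway, 42 of which were tested, gave 0 calls in every comparison as well. The 4 genes left out, Gsta2, Gsta3, Gstm3 and Abcc2, had a mean below 0.5 RPKM. Against vehicle, 5, 7, 6 and 8 of the 42 had an unadjusted p-value under 0.05 for insulin, glargine, X10 and IGF1, which is 11.9%, 16.7%, 14.3% and 19% of the list beside 11.1%, 6.23%, 11% and 8.84% of all tested genes. The median log2 fold change of the list was between -0.04 and 0.00 against vehicle, and that of all tested genes was between -0.03 and 0.03. Among the 6 NADPH-supplying enzymes the smallest F test p-value was that of Idh1, cytosolic isocitrate dehydrogenase (adjusted limma p = 0.229), with 36.2 ± 9.77 RPKM in vehicle, 41.5 ± 4.91 in insulin, 47.7 ± 8.91 in glargine, 45.2 ± 6.15 in X10 and 36.5 ± 8.64 in IGF1 tumors. Among the 8 regulators and partners it was that of Mafk, a small MAF partner of NRF2 (adjusted p = 0.34), with 14.4 ± 9.22 RPKM in vehicle and 8.71 to 9.57 in the means of the other groups. Without Untreated_161 the vehicle mean of Mafk was 11.9 ± 4.72 RPKM (SD, n = 9). Among the thioredoxin and peroxiredoxin genes it was Prdx6 (adjusted p = 0.333), among the detoxification, heme and iron genes Cbr1 (adjusted p = 0.37) and among the genes of glutathione use and export Gstm1 (adjusted p = 0.529). Prdx6 had 232 ± 141 RPKM in vehicle, with its highest value also in Untreated_161. A further 13 antioxidant enzymes outside the pathway, such as superoxide dismutases and catalase, also gave 0 calls.

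Treatment groups accounted for 2.02% to 24.2% of the variance of the 10 genes, and the rest lay between tumors of a group. The same share was not taken for all tested genes, so this does not set the 10 genes apart. This description of single tumors was chosen after their values had been seen and was not tested. The vehicle tumor Untreated_161 had the highest value of all 50 tumors for 5 of the 10 genes. They were Hmox1 (523 RPKM, 5.14-fold above the median of the other 49 tumors), Txnrd1 (119 RPKM, 3.29-fold), Gclm (156 RPKM, 3.22-fold), Gclc (25.4 RPKM, 2.65-fold) and Srxn1 (104 RPKM, 2.23-fold). Nqo1 ranked 4th there, with 14.1 RPKM and 3.71-fold, and Slc7a11 ranked 7th, with 3.34 RPKM and 2.51-fold. Gsr, also a target, ranked 13th, with 167 RPKM and 1.29-fold. Of the regulators, Nfe2l2 (56.6 RPKM, 0.827-fold) ranked 41st and Keap1 (9.91 RPKM, 0.647-fold) 45th.

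Of the 42 tested genes of the wider list, 8 were highest in Untreated_161 and 20 had it among their 5 highest tumors, while the same shares of all tested genes were 4.27% and 14.7%. The 8 genes were Aldh3a1, an aldehyde dehydrogenase (102 RPKM, 23-fold above the median of the other tumors), Maff (5.32-fold) and Mafk (4.28-fold), small MAF partners, Fth1, the ferritin heavy chain (4.41-fold), Ephx1, an epoxide hydrolase (3.6-fold), Prdx6 (3.54-fold), Abcc1, a glutathione conjugate exporter (2.7-fold), and Gstp1, a glutathione transferase (2.65-fold). Not all of the list went the same way, since 12 of 42 were at or below the median of the other tumors, including Abcc3 (0.165-fold), Idh1 (0.544-fold) and Akr1b8 (0.668-fold). Among the 13 antioxidant enzymes outside the pathway 0 were highest there, and Sod2 was the lowest of 50 (0.59-fold). Of the 7 ATF4 stress genes 1 was highest there, and 3 had Untreated_161 among their 5 highest tumors. Their median was 1.64-fold of the other tumors, against 1.45-fold for the wider list and 2.58-fold for the 10 genes. The same tumor stood apart in cell type markers. Its summed macrophage (239 RPKM) and T cell markers (2.02 RPKM) were the lowest of all tumors, its neutrophil markers were at a median of 5.55-fold and its epithelial markers at 3.34-fold of the other tumors, fibroblast markers were at 0.287-fold, adipocyte markers at 0.0765-fold and hypoxia genes at 1.78-fold, and 10.7% of all tested genes were lowest there. The part of cell make-up in its NRF2 target levels was not tested.

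**Figure D3:**
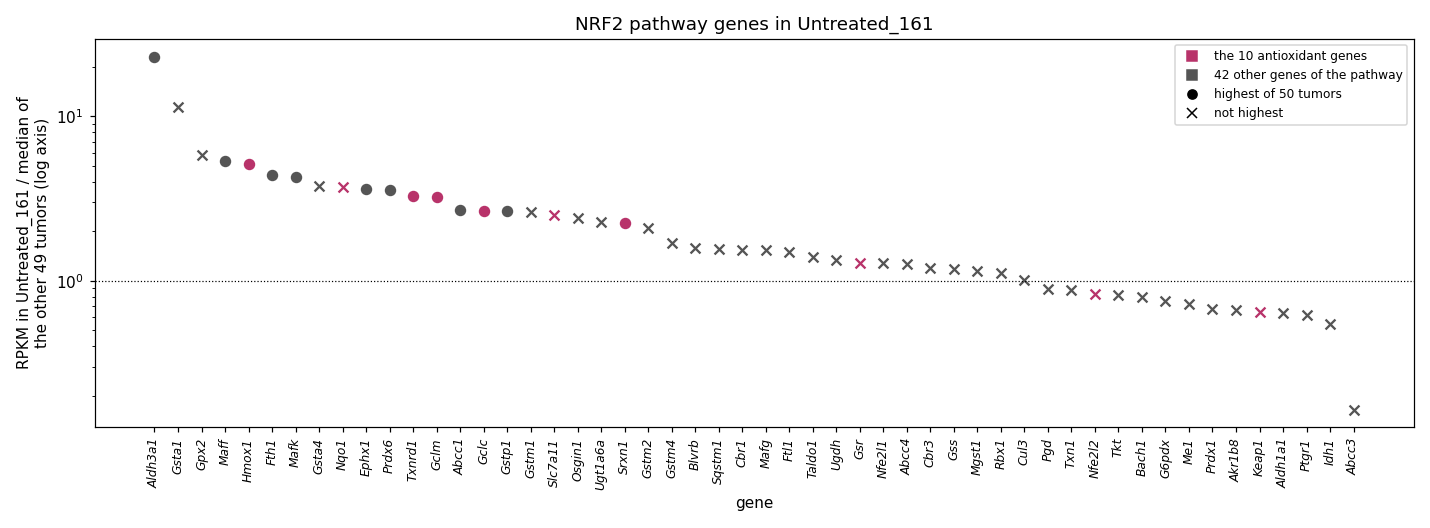
RPKM in Untreated_161 divided by the median of the other 49 tumors (log axis) for the 10 genes (red) and 42 other tested genes of the pathway (grey), with circles for genes that were highest of 50 in this tumor and crosses for the rest. Aldh3a1, at 23-fold, and Hmox1, at 5.14-fold, are among the 13 genes with circles, and Nfe2l2 and Keap1 lie below 1.

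Other tumors led for other genes. The vehicle tumor Untreated_187 had the highest Nfe2l2 (92.4 RPKM) and Nqo1 (27.3 RPKM), Untreated_174 the highest Keap1 (26.9 RPKM) and Gsr (257 RPKM) and the lowest Gclc (3.37 RPKM), and insulin_18 the highest Slc7a11 (6.01 RPKM). In Untreated_174, 6.49% of all tested genes were highest and 10.4% lowest, so it too stood apart from the rest. Of the 42 tested genes of the wider list, 7 were highest in Untreated_174, beside 8 in Untreated_161. The IGF1 tumor IGF1_160 was among the 5 lowest tumors for 5 of the 10 genes and among the 5 highest for 2, beside 30.8% and 18.1% of all tested genes.

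Whether the genes moved together across the 50 tumors was tested with Pearson's r on log2(RPKM + 0.5) for all 45 pairs, with two-sided permutation p-values (100000 resamples) adjusted over the 45. Of these, 12 pairs passed, 10 with a positive and 2 with a negative r. The 6 possible pairs of Gclc, Gclm, Txnrd1 and Srxn1 were all among the 12. Without Untreated_161, 4 pairs passed, of which 1 was among those 6, so that most of these calls depended on that tumor. The r of the 6 pairs stayed above 0 without it, at 0.241 to 0.515.

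The closest pair was Gclc and Gclm, the subunits of one enzyme. Their r was 0.639 (permutation p = 1e-05, the smallest the resamples can give, adjusted p = 0.00045) and Spearman's rho 0.457 (permutation p = 0.00106, adjusted p = 0.0159). It was 0.667 with treatment group means removed, 0.515 without Untreated_161 (adjusted permutation p = 0.0045) and 0.463 without the 2 tumors farthest from the median (adjusted permutation p = 0.0151). Slc7a11 and Hmox1, which are both also targets of stress factors other than NRF2, had an r of 0.465 (permutation p = 0.00074, adjusted p = 0.00979) and a rho of 0.474 (permutation p = 0.00068, adjusted p = 0.0159). Their r was 0.481 within treatment groups, 0.434 without Untreated_161 and 0.513 without the 2 farthest tumors.

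Gsr and Nqo1 had an r of 0.434 (permutation p = 0.00189, adjusted p = 0.0142) and a rho of 0.468 (permutation p = 0.00077, adjusted p = 0.0159). It was 0.43 within groups and 0.422 without Untreated_161, and 0.392 without the 2 farthest tumors, where it no longer passed (adjusted permutation p = 0.0614). Nfe2l2 correlated with 1 of the 8 target genes, Slc7a11, with an r of 0.377 (permutation p = 0.00717, adjusted p = 0.0323) and a rho of 0.395 (permutation p = 0.00468, adjusted p = 0.0421). It was 0.38 within groups and 0.341 without the 2 farthest tumors (adjusted permutation p = 0.114), where it no longer passed.

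Gclm with Txnrd1 (r = 0.551, rho = 0.358), Gclc with Txnrd1 (r = 0.496, rho = 0.324), Gclc with Srxn1 (r = 0.467, rho = 0.363), Txnrd1 with Srxn1 (r = 0.401, rho = 0.319) and Gclm with Srxn1 (r = 0.384, rho = 0.293) passed by r and not by rho. Their r without Untreated_161 was between 0.241 and 0.353, and none of them passed. Txnrd1 with Nqo1 (r = 0.418, rho = 0.308) fell to 0.338 without it. Keap1 was negatively related to Slc7a11 (r = -0.353, rho = -0.401) and to Nqo1 (r = -0.348, rho = -0.334), both with an adjusted permutation p-value of 0.0479. Without Untreated_161 these r were -0.326 and -0.309 and did not pass (adjusted permutation p = 0.112 and 0.121), and within treatment groups they were -0.362 and -0.407 and passed (0.0306 and 0.0131). Within treatment groups its r with Txnrd1 was -0.55 (adjusted permutation p = 0.00075), against -0.343 over all tumors, which did not pass (adjusted permutation p = 0.0532). Those of Keap1 with Gclc and Hmox1 passed within treatment groups as well (r = -0.392 and -0.408, adjusted permutation p = 0.0144 and 0.0131). Over all tumors they were -0.31 and -0.261 and did not pass (adjusted permutation p = 0.0952 and 0.173). Over all tumors the r of Keap1 was below 0 with each of the other 9 genes.

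**Figure D4:**
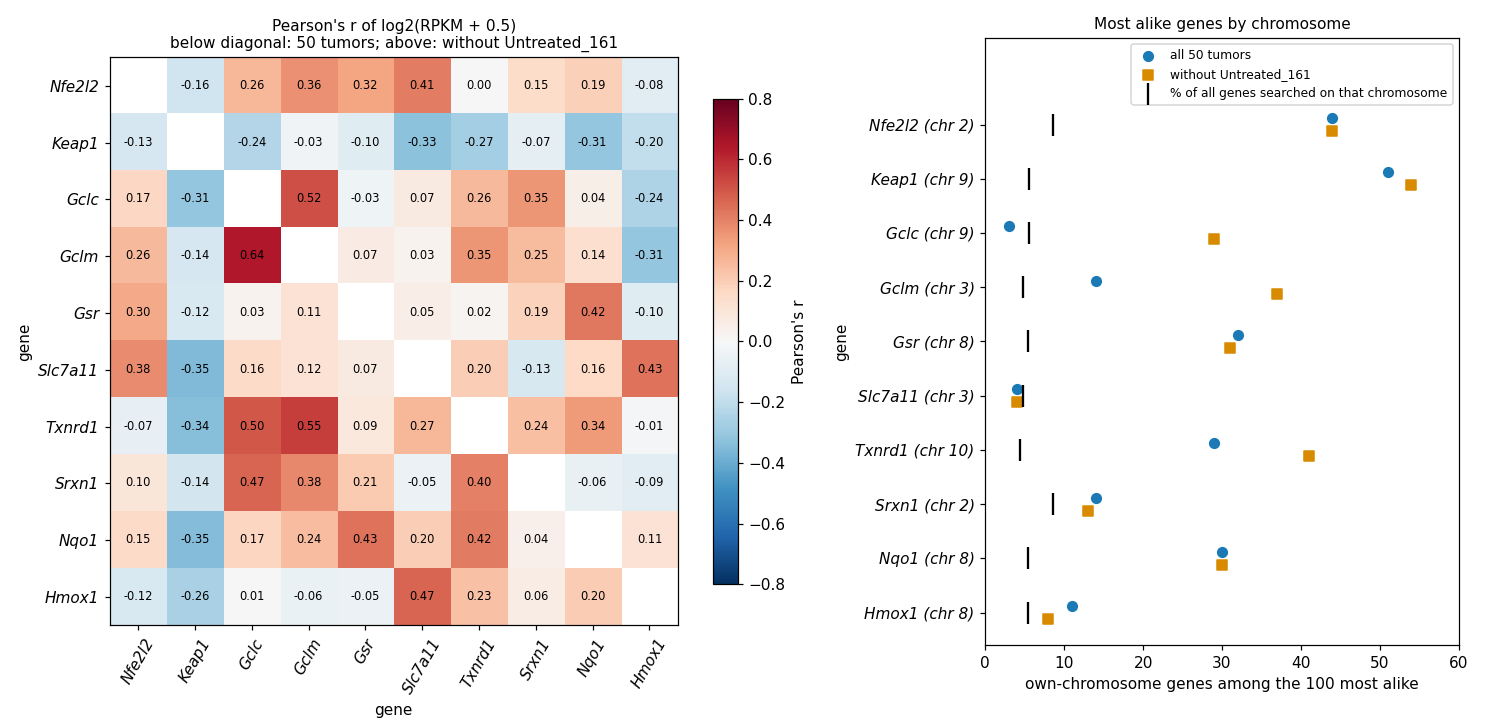
Left, Pearson's r of log2(RPKM + 0.5) for the 45 pairs of genes over 50 tumors (below the diagonal) and without Untreated_161 (above it). Right, how many of the 100 genes most alike to each gene lie on its own chromosome, with all 50 tumors (circles) and without Untreated_161 (squares), beside the percentage of all genes searched that lie on that chromosome (bars): for Keap1 51 and 54 beside 5.52%.

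The 10 genes were then set beside 14 lists of genes (the wider NRF2 list, other antioxidant enzymes, ATF4 stress, hypoxia and proliferation genes and 9 cell type marker lists) and the library size. Each list was scored per tumor as the average of the z-scores of its members. Of 150 relations 13 passed the adjusted permutation test, and 0 of them were with library size. Without Untreated_161, 13 passed as well, of which 8 were among the first 13. The 5 others were those of Gclm and Gclc with proliferation genes (r = 0.502 and 0.431, against 0.299 and 0.232 with that tumor), of Gclc and Gclm with neutrophil markers (r = -0.456 and -0.425, against -0.271 and -0.252) and of Gclm with other antioxidant enzymes (r = -0.401, against -0.358). Without the 2 farthest tumors instead, none of these 5 passed (adjusted permutation p of at least 0.206). Their r was then 0.158 and 0.084, -0.073 and -0.153, and -0.312 in the same order. With the 7 ATF4 stress genes none of the 10 genes passed over all tumors, where r was 0.402 for Txnrd1 (adjusted permutation p = 0.0567), 0.352 for Hmox1 (0.0834) and 0.339 for Slc7a11 (0.102). Slc7a11 passed within treatment groups (r = 0.402, adjusted permutation p = 0.0411), and Txnrd1 and Hmox1 without the 2 farthest tumors (r = 0.47 and 0.422, adjusted permutation p = 0.0162 and 0.0489). Txnrd1 with other antioxidant enzymes passed within treatment groups (r = -0.401, adjusted permutation p = 0.0388) and not over all tumors (r = -0.279, adjusted permutation p = 0.223).

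Hmox1 had the strongest relations. With 7 hypoxia genes (Car9, Vegfa, Slc2a1, Ldha, Ndrg1, Ankrd37 and Egln3) its r was 0.647 (permutation p = 1e-05, adjusted p = 0.0015) and its rho 0.632 (permutation p = 1e-05, adjusted p = 0.0015). The r was 0.707 within treatment groups, 0.639 without Untreated_161 and 0.606 without the 2 farthest tumors, and it passed in each of these. With 5 neutrophil markers its r was 0.566 (permutation p = 4e-05, adjusted p = 0.003) and its rho 0.499 (permutation p = 0.00028, adjusted p = 0.012), and the r was 0.633 within groups and 0.551 without the 2 farthest tumors. With 5 proliferation genes, such as Mki67 and Top2a, it was negative, with an r of -0.478 (permutation p = 0.0004, adjusted p = 0.015) and a rho of -0.476 (permutation p = 0.00054, adjusted p = 0.0135), and it did not pass without the 2 farthest tumors (r = -0.405, adjusted permutation p = 0.0718). The summed neutrophil markers were between 34.9 and 2710 RPKM in vehicle, 20.9 and 290.0 in insulin, 18.0 and 331 in glargine, 18.8 and 906 in X10 and 28.7 and 473 in IGF1 tumors, and their part in the Hmox1 levels was not tested.

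Slc7a11 shared both of these relations at a lower r, with 0.400 for hypoxia (rho = 0.403) and 0.404 for neutrophil markers (rho = 0.302), and neither passed without Untreated_161 (r = 0.381 and 0.38, adjusted permutation p = 0.0537 for each), while both passed within treatment groups (r = 0.441 and 0.433, adjusted permutation p = 0.0207 and 0.0217). Neither passed by rho (adjusted permutation p = 0.0543 and 0.187) or without the 2 farthest tumors (r = 0.306 and 0.311, adjusted permutation p = 0.213 and 0.206). Nqo1 was related to neutrophil markers (r = 0.467, permutation p = 0.0006, adjusted p = 0.018, rho = 0.482, permutation p = 0.0004, adjusted p = 0.012), to epithelial markers (r = 0.433, permutation p = 0.00178, adjusted p = 0.0312, rho = 0.486, permutation p = 0.00039, adjusted p = 0.012) and to the wider NRF2 list (r = 0.445, rho = 0.445, adjusted permutation p = 0.0257 for r). Of these, the relation to the wider list did not pass without Untreated_161 (r = 0.381, adjusted permutation p = 0.0537). Gsr was related to epithelial (r = 0.429, rho = 0.343) and neutrophil markers (r = 0.415, rho = 0.375), in each case by r and not by rho. Within treatment groups these r were 0.347 and 0.357 and did not pass (adjusted permutation p = 0.0933 and 0.0844).

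Txnrd1 was lower in tumors with more T cell markers, with an r of -0.529 (permutation p = 0.00014, adjusted p = 0.007) and a rho of -0.53 (permutation p = 6e-05, adjusted p = 0.0045). The r was -0.539 within treatment groups, -0.464 without Untreated_161 and -0.498 without the 2 farthest tumors, and it passed in each. Hmox1 was also lower with more T cell markers (r = -0.425, rho = -0.377), but not past the threshold without Untreated_161 (r = -0.354, adjusted permutation p = 0.0734). Keap1 had the opposite sign with T cell markers. Its r of 0.371 did not pass (adjusted permutation p = 0.0738), nor did that without Untreated_161 (0.33, adjusted permutation p = 0.105), while its rho of 0.444 passed (adjusted permutation p = 0.0277), as did its r within treatment groups (0.468, adjusted permutation p = 0.0138) and without the 2 farthest tumors (0.455, adjusted permutation p = 0.0272). Gclm was lower with more fibroblast markers (r = -0.449, rho = -0.401), and without Untreated_161 its r was -0.309 and did not pass (adjusted permutation p = 0.136). The part of cell make-up in these levels was not tested.

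**Figure D5:**
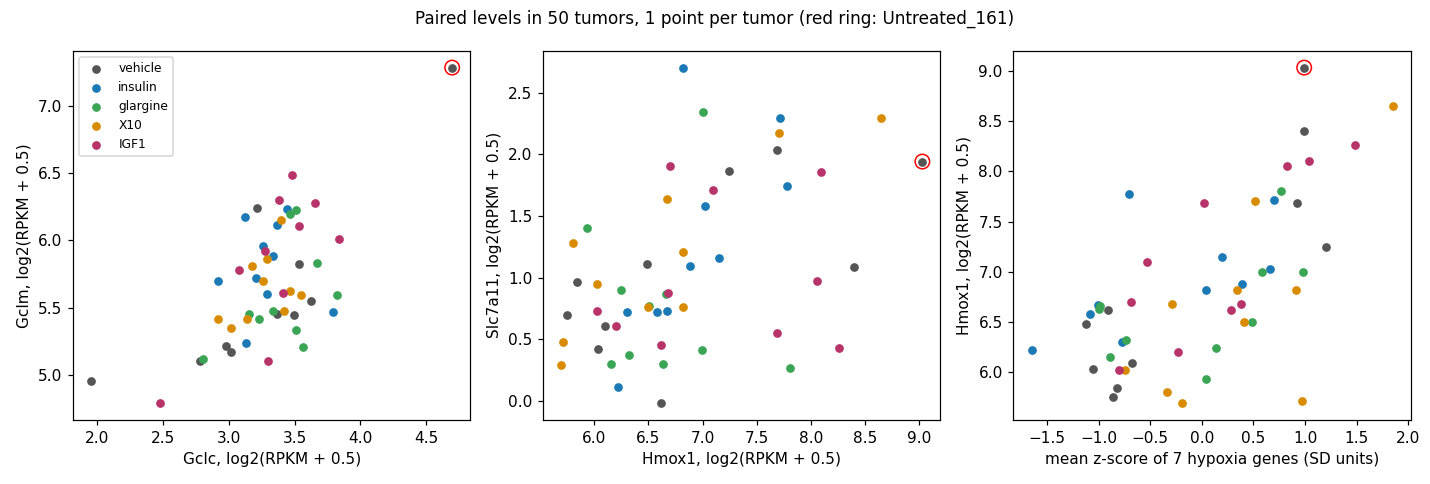
Paired levels in 50 tumors, 1 point per tumor coloured by treatment, with a red ring around Untreated_161. Gclm rises with Gclc (left, r = 0.639, and 0.515 without the ringed tumor), Slc7a11 with Hmox1 (middle, r = 0.465) and Hmox1 with the mean z-score of 7 hypoxia genes (right, r = 0.647), with all axes on log2 or SD scales.

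The genes most alike to each of the 10 were searched among 10903 genes with a mean of at least 5 RPKM (10904 for Slc7a11, which is below that level itself), with treatment group means removed and Pearson's r over the 50 tumors as the measure. For Hmox1 they were Eno2 (r = 0.757), Fam162a (0.753) and Bnip3 (0.741), and the same 3 genes led without Untreated_161. Eno2 encodes a glycolytic enolase and Bnip3 a mitochondrial mitophagy receptor. For Srxn1 they included Fosl1 (0.698) and Vim (0.645), and without Untreated_161 Samd4 (0.74) led and Fosl1 (0.679) was the third. Fosl1 encodes a subunit of AP-1, whose site was found in 7.81% of all promoter windows. A part of AP-1 in the Srxn1 levels was not tested. For Nqo1 they were Foxc1 (0.742), Stk38l (0.737) and Vdr (0.735), and for Nfe2l2 Plekhm3 (0.683), Ccndbp1 (0.666) and Tmem87b (0.642). For Slc7a11 they were Gm12840 (0.603), Arfgap3 (0.592) and Ets2 (0.588). For Gclc they included Foxn2 (0.75) and Lats2 (0.737), for Gclm they were Prkci (0.719), Fip1l1 (0.711) and Lactb2 (0.708), and for Txnrd1 Eif4b (0.689), Uhrf1bp1l (0.687) and Arl14ep (0.66). Without Untreated_161 the first gene was Atm (0.798) for Gclc, Zranb2 (0.798) for Gclm and Nav3 (0.698) for Txnrd1.

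Of the 30 leading genes (3 for each of the 10), 11 lay on the same chromosome as the gene they resembled, and of those found without Untreated_161 15 of 30 did. Gnai2 (r = 0.82), Usp4 (0.76) and Pigyl (0.756), the 3 most alike to Keap1, are all on chromosome 9, as is Keap1. The 3 most alike to Gsr were Ppp2cb (0.742), Ubxn8 (0.696) and Cdkl2 (0.696), of which the first and second lie 33082 and 10556 bases from it on chromosome 8 and the third on chromosome 5. After these values had been seen, the chromosome of the 100 most alike genes was counted for each of the 10 genes, as a description without a test. For Keap1, 51 of the 100 were on chromosome 9, which holds 5.52% of the genes searched. For Nfe2l2 44 were on chromosome 2 (8.59%), for Gsr 32 and for Nqo1 30 on chromosome 8 (5.36%), for Txnrd1 29 on chromosome 10 (4.45%) and for Gclm 14 on chromosome 3 (4.81%).

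Without Untreated_161 these counts were 54 for Keap1, 44 for Nfe2l2, 31 for Gsr, 30 for Nqo1, 41 for Txnrd1 and 37 for Gclm, and that of Gclc, on chromosome 9, was 29 against 3 with that tumor. The counts of Slc7a11 (4 of 100 on chromosome 3 with that tumor and 4 without it), Hmox1 (11 and 8 on chromosome 8) and Srxn1 (14 and 13 on chromosome 2) were nearer to the share of all genes. For some of the genes the likeness was not limited to close neighbours. Over all 50 tumors the median r of Keap1 with the 504 genes over 10 Mb away on chromosome 9 was 0.282, against 0.042 with genes of other chromosomes, and for Nqo1 it was 0.224 with 479 such genes, against -0.043. It was 0.048 against 0.001 for Gclc, 0.042 against 0.018 for Srxn1 and -0.038 against -0.065 for Slc7a11, and for the other 5 genes it was 0.049 to 0.218 against -0.129 to 0.036. Leaving out Untreated_161, it was 0.174 against 0.036 for Gclc and 0.334 against 0.08 for Gclm. For Keap1 it was then 0.265 against 0.035. The points of these correlations share the same 50 libraries, and genes of a chromosome are not independent of each other. Of the 6 pairs on a shared chromosome 1 passed the test given above, Gsr with Nqo1, and of the 39 other pairs 11 did.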

How the data were processed

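Poly-A RNA of 50 MG tumors had been sequenced on the Ion Proton. The authors aligned reads to GRCm38 with TopHat2 2.0.10 and Bowtie2, counted them per gene with HTSeq 0.6.1 and deposited RPKM values, normalized to library size and gene length. The paper states that its RPKM table was made with DEXSeq, for a look at single exons. For each gene the values rise in equal steps, 1 step per read, from which reads and library sizes were recovered for 15982 of 16733 tested genes, and in each tumor at least 96.2% of low values fell on whole reads. Tumors titled untreated were treated as vehicle, which is the fifth group the design text names.

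Genes with a mean of at least 0.5 RPKM went into a limma fit (version 3.58.1, R 4.3.3) of log2(RPKM + 0.5) with all 5 groups and an intensity trend. A fold change on this scale understates the change of low genes. A p-value adjusted by Benjamini-Hochberg over all tested genes under 0.05 was a call. The test and the recovery of reads were tested on simulated data. Correlations used permutation tests with 100000 resamples (Python 3.11.15, numpy 2.4.6, scipy 1.17.1). The count-based DESeq2 analysis of the authors was not repeated, and limma voom on recovered reads was an alternative. Other alternatives were pseudocounts of 0.1 and 1, other filters, quantile and upper quartile scaling, no trend, robust variances, only the compared groups, library size or cell type markers as covariates, and leaving out each tumor. Coordinates came from GENCODE M21 and promoters from RefSeq (GRCm38.p6). Antisense and overlapping genes cannot be told apart where strand was not counted.

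The 10 genes and all gene lists were chosen with earlier results of these data known. All 10 genes are named. Of the wider list the gene with the smallest F test p-value per role was named, since none was called, and the 3 genes with the highest r were taken as most alike, some of which are not reported here. The most alike genes without Untreated_161, their chromosomes and the description of single tumors were added after the data had been seen.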

Additional observations from a re-analysis of the deposited data

Results flagged for a closer look

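In 3 of the 50 combinations of a gene and a treatment group, 1 tumor lay farther from the other 9 than Dixon's critical value allows on the log2 scale, where chance gives about 1 in 20. Gsr was at 50.7 RPKM in the vehicle tumor Untreated_162, with the next tumor of that group at 112 RPKM. Txnrd1 was at 119 RPKM in Untreated_161, with the next at 61.3 RPKM. Srxn1 was at 21.8 RPKM in the tumor IGF1_158, with the next at 40.0 RPKM. The Gsr and Txnrd1 values bear on the differences from vehicle, which are given with and without those tumors above.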

How the results depend on the processing

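None of the 10 genes was called in any of the 11 comparisons or the F test under the 12 other settings, limma voom on recovered reads included, or in the 50 fits that left out 1 tumor. The setting with only the compared groups holds neither the F test nor the comparison of X10 and IGF1 with the other tumors. Outside the F test, the smallest adjusted limma p-value of any of the 10 genes in any setting was 0.101 (Keap1, IGF1 against X10, leaving 1 tumor out). Of the 110 differences, 25 changed sign in some of the 12 settings and 47 in some of these or the fits that left out 1 tumor, with an absolute log2 fold change of at most 0.44. The number of correlated pairs, 12, depended on the setting. It was 5 with Spearman's rho, 2 without the 2 farthest tumors and 4 to 13 when each tumor was left out in turn, with the lowest count, 4, without Untreated_161. With treatment group means removed all 12 passed, and Keap1 with Gclc, Txnrd1 and Hmox1 passed besides. Of the 13 relations to gene lists, 5 passed in every fit that left out 1 tumor. The number of relations was 8 with Spearman's rho, 20 with the log2 of summed RPKM, 8 without the 2 farthest tumors and 10 to 17 leaving 1 tumor out. The cause of these changes was not tested. None of these 12 pairs and 13 relations changed sign in any setting. No paired analysis was possible because each tumor number occurs in only 1 group. With 10 tumors per group, the intervals given above are wide for the variable genes.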
